A study of Mus musculus with 2 samples.

Results

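The 9 genes *Dcn*, *Lum*, *Bgn*, *Fmod*, *Aspn*, *Kera*, *Ogn*, *Omd* and *Prelp* encode small leucine-rich proteoglycans (SLRPs) of the extracellular matrix. They were chosen by symbol, and all 9 were found among the 31053 genes of the count matrices. Their raw UMIs, unique molecular identifiers that each stand for a counted transcript molecule, were read in 2 single-cell RNA sequencing libraries of mouse periodontal tissue. The control library came from untreated wild-type C57BL/6 mice. The LIP library came from wild-type C57BL/6 mice with ligature-induced periodontitis, a model in which a silk thread tied around a molar provokes inflammation and bone loss, and was made 7 days after the ligature. All mice were 8 weeks old, and each library pooled gingiva and scrapings of the alveolar bone surface from 5 mice. With 1 library per condition there was no replicate, so no difference was tested, and every interval given here covers counting error only.

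SLRPs share a curved core protein built of leucine-rich repeats, and most carry glycosaminoglycan chains of the dermatan, chondroitin or keratan sulfate type. They bind the surface of collagen fibrils and set their thickness and spacing, and several bind growth factors such as TGF-β and BMPs. In the periodontium they belong to the matrix of the gingiva, the periodontal ligament, cementum and bone. *Dcn* (decorin), *Bgn* (biglycan) and *Aspn* (asporin, first described in the periodontal ligament as a ligament-associated protein) form class I of the family. *Lum* (lumican), *Fmod* (fibromodulin), *Kera* (keratocan, best known from the cornea), *Omd* (osteomodulin or osteoadherin, a keratan sulfate proteoglycan of mineralized matrix) and *Prelp* (a heparin-binding protein found in cartilage and basement membrane zones) form class II, and *Ogn* (osteoglycin or mimecan) belongs to class III.

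In mouse build GRCm38, 3 runs of neighbouring genes hold all members but *Bgn*, which lies on chromosome X (chrX:73483602-73495933, plus strand). On chromosome 10, *Dcn* (chr10:97479609-97518143), *Lum* (chr10:97565128-97572703) and *Kera* (chr10:97606879-97613692) follow each other on the plus strand with gaps of 47.0 and 34.2 kb. On chromosome 13, *Aspn* (chr13:49544443-49567565), *Omd* (chr13:49582462-49592822) and *Ogn* (chr13:49608046-49624501) stand 14.9 and 15.2 kb apart, and *Cenpp* overlaps them on the opposite strand. *Prelp* (chr1:133910304-133921414, minus strand) and *Fmod* (chr1:134037254-134048277, plus strand) lie 116 kb apart on chromosome 1. No annotated gene overlapped a member on its own strand.

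The 3 neighbours on chromosome 13 are shown with the 250 bases before their RefSeq start (build GRCm38.p6, plus strand), since they lie side by side and differed in the cells that held them, with *Omd* nearly limited to stromal cells, *Aspn* also in mural cells and *Ogn* also in Schwann cells. The windows are chr13:49544193-49544442 for *Aspn*, chr13:49582212-49582461 for *Omd* and chr13:49607765-49608014 for *Ogn*. Capitals mark exact matches, on either strand, to the TATA box letters TATAAA or the RUNX core TGTGGT. The SOX core ACAAAG was also searched and had no match in these 3 windows.
Aspn: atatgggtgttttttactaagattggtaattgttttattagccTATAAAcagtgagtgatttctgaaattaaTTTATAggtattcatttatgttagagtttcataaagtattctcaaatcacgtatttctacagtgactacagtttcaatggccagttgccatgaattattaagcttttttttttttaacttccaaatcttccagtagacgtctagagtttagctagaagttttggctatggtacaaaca
Omd: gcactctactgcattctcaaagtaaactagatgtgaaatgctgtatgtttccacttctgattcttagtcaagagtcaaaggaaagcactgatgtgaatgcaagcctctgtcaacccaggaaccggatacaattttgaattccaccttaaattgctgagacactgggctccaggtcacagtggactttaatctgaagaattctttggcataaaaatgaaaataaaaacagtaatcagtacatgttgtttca
Ogn: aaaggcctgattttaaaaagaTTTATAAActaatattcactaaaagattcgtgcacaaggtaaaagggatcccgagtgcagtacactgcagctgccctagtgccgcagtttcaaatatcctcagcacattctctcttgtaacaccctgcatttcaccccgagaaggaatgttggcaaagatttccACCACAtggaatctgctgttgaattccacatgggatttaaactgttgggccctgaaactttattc
*Aspn* held 2 TATA box matches, at -207 and -178 from the start. *Ogn* held 2 that overlap each other, at -229 and -227, and a RUNX core match at -65, whereas *Omd* held none of the 3 motifs. Of 32851 RefSeq promoter windows of this length, 12.4% held the TATA box letters, 14% the RUNX core and 16.5% the SOX core. The GC content was 30% for *Aspn*, 38.4% for *Omd* and 42% for *Ogn*, against a median of 52.4% over all windows. RefSeq windows matched 7 of the 9 members by symbol, all but *Dcn* and *Lum*. A match is a string of letters in this window and says nothing of what binds there.

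The control library held 1169 barcodes with 16472915 UMIs and the LIP library 1212 barcodes with 14236327 UMIs, and they shared 2 barcode sequences. Cells with 200 to 7500 genes, at most 60000 UMIs and at most 10% mitochondrial UMIs were kept, 883 in control (median 10845 UMIs) and 936 in LIP (median 5595 UMIs). Levels are in CPM, a gene's UMIs summed over the cells of a class, for each 1000000 UMIs in that class, with the exact Poisson 95% interval. In a 3′ library this scale counts transcript molecules and is not divided by transcript length.

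The stromal cells fell into 3 groups that were named from their leading genes, and the 9 members took no part in the clustering. Fibroblast-gene cells, led by *Mfap4*, *Clec3b* and *Dpt*, numbered 100 in control and 26 in LIP. Bone-gene cells, led by *Ibsp*, *Bglap* and *Mmp13*, numbered 20 and 31, and cartilage-gene cells, led by *Cytl1*, *Chad* and *Acan*, numbered 11 and 7. The fibroblast-gene and cartilage-gene cells together are called the stromal cells without bone genes, 111 in control and 33 in LIP. The name is of the group, since single cells in it held bone genes. In control, *Phex* was in 15 of 100 fibroblast-gene and 0 of 20 bone-gene cells, and *Smpd3* in 10 and 1. In LIP, *Phex* was in 0 of 26 and 10 of 31, and *Smpd3* in 1 and 10. At least 2 bone genes were held by 29 control and 43 LIP stromal cells, against 102 and 21 with fewer. Unlike the libraries as a whole, stromal cells were deeper in LIP. The median was 12931 UMIs in control and 25670 in LIP for bone-gene cells, and 11096 and 16287 for those without bone genes. Counts of cells with a UMI are therefore not matched for depth between the libraries.

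A pair of features of these groups bear on the comparisons, and both were noticed in the data. First, the bone-gene group was mixed. *Ibsp*, *Bglap* and *Bglap2*, which encode bone sialoprotein and osteocalcin of the mineralized matrix, summed to at least 18 UMIs in 3 of the 20 control cells and at least 22 UMIs in 15 of the 31 LIP cells. The other 17 control and 16 LIP cells held at most 1 and 2 of these UMIs. *Bglap* and *Bglap2* are near-identical copies whose split is uncertain, which is why they were summed. The low cells held few of some bone genes. *Runx2*, the master transcription factor of osteoblasts, was found in 10 of 17 control and 11 of 16 LIP low cells. *Alpl* was found in only 6 and 5 of these cells and *Sp7* in 2 and 3. The ligament genes *Tnmd* and *Postn* were found in 9 and 15 of 17 in control and in 10 and 16 of 16 in LIP. Low cells thus made up 17 of the 20 control bone-gene cells. Cells with at least 10 of these UMIs are called Ibsp/Bglap high and the others Ibsp/Bglap low. Second, 13 of the 100 control fibroblast-gene cells held UMIs of at least 3 olfactory neuron genes (8 cells, *Omp* among the genes) or 3 muscle precursor genes (5 cells, *Pax7* among the genes), as did 2 of the 26 LIP cells, both with muscle precursor genes. The 13 cells held 133418 UMIs in all, of which 4 were from *Dcn*, so results on the stromal cells without bone genes are also given without them.

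Stromal cells held most of the SLRP transcripts. Of the 41189 UMIs of the 9 genes in kept control cells, 85.6% (95% Clopper-Pearson interval 85.3 to 86.0) were in stromal cells, and of 27238 in LIP 82.2% (81.7 to 82.6). The genes differed in how closely they kept to the stroma. *Lum* and *Omd* were nearest to it, with 98.2% and 97.1% of their UMIs in stromal cells in control and 95.1% and 97.7% in LIP. For *Dcn*, *Fmod* and *Bgn* the share was 86.4%, 85.0% and 83.6% in control and 84.3%, 92.4% and 76.1% in LIP. *Aspn* (69.2% and 79.6%) and *Prelp* (61.5% and 80.0%) had large parts elsewhere, and *Ogn* went from 73.1% in control to 29.6% in LIP, where Schwann cells held 64.2% of its UMIs. These shares also depend on how many cells of each class a library held. Stromal cells numbered 131 in control and 64 in LIP, Schwann cells 37 and 103, and lymphatic endothelial cells 19 and 5.

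**Figure D1:**
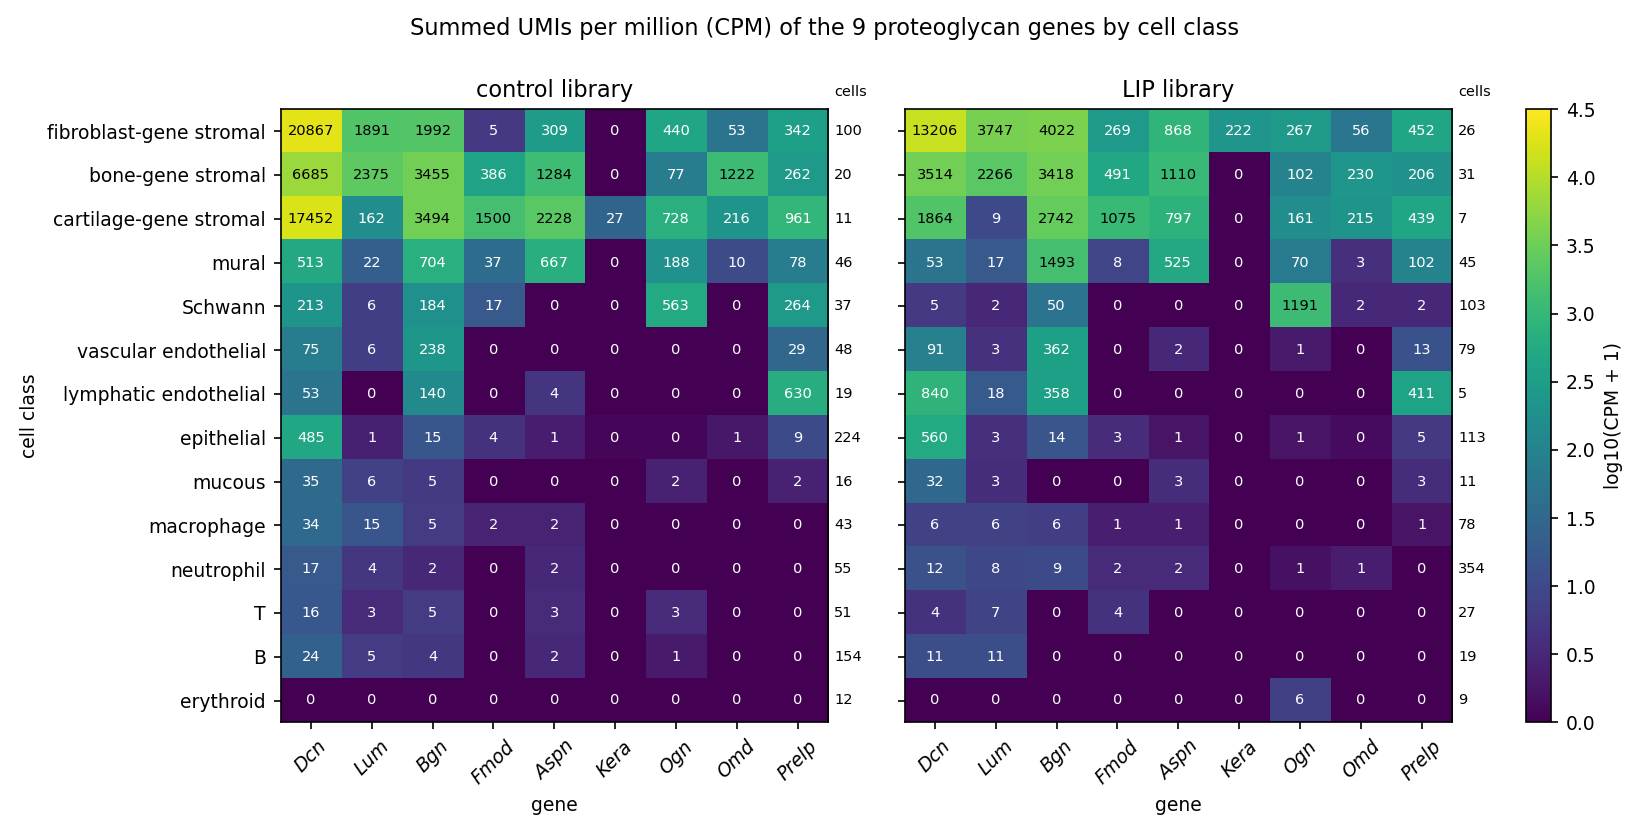
Each tile gives the CPM of a gene (columns) in a cell class (rows) of the control or LIP library, coloured by log10(CPM + 1), with the number of cells at the right. *Dcn* reached 20867 CPM in control fibroblast-gene cells, *Omd* was highest in bone-gene cells of both libraries, and *Ogn* stood at 1191 CPM in LIP Schwann cells.

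*Dcn*, which limits the lateral growth of collagen fibrils, was the most abundant of the 9 in every stromal group except the LIP cartilage-gene cells, where *Bgn* was higher. In LIP bone-gene cells the intervals of *Dcn* and *Bgn* overlapped. Its level in fibroblast-gene cells was 20867 CPM (20596 to 21140) in control, in 91 of 100 cells, and 13206 CPM (12893 to 13524) in LIP, in 25 of 26 cells. All 9 control cells and the 1 LIP cell without *Dcn* were among those with olfactory neuron or muscle precursor genes. Without these, *Dcn* was present in 87 of 87 and 24 of 24 fibroblast-gene cells, at 23776 and 13563 CPM. The order in control was fibroblast-gene, cartilage-gene (17452 CPM) and bone-gene cells (6685 CPM), and in LIP fibroblast-gene, bone-gene (3514 CPM) and cartilage-gene cells (1864 CPM), and no 2 neighbours in either order had overlapping intervals. As a background, *Dcn* was found in 7 of 55 control neutrophils and 20 of 354 in LIP, at 17.0 and 12.1 CPM. After thinning to 1000 UMIs per cell, which left out shallower cells, *Dcn* was in 86.7% and 96.2% of fibroblast-gene cells but in 0% and 1.56% of neutrophils. Barcodes with fewer than 200 genes held 13.4 and 3.42 CPM, a weak background since their 972621 and 584160 UMIs fell on few genes per barcode.

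*Bgn*, the close relative of decorin in bone and cartilage matrix, was abundant in all 3 stromal groups. In control it stood at 3494 CPM in cartilage-gene, 3455 in bone-gene and 1992 in fibroblast-gene cells, and the intervals of the first pair overlapped. In LIP it stood at 4022 CPM in fibroblast-gene, 3418 in bone-gene and 2742 in cartilage-gene cells. Every bone-gene cell of both libraries held *Bgn* (20 of 20 and 31 of 31).

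*Aspn*, which binds collagen at the site of decorin and is known to restrain mineralization in the ligament, was highest in control cartilage-gene cells (2228 CPM, 1959 to 2523) and then bone-gene cells (1284 CPM, 1150 to 1430). In LIP the order was bone-gene (1110 CPM), fibroblast-gene (868 CPM) and cartilage-gene cells (797 CPM), and the intervals of the last pair overlapped. Mural cells, the smooth muscle cells and pericytes of vessels, held 667 CPM in control and 525 CPM in LIP.

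*Lum*, a regulator of fibril diameter that shares a collagen site with fibromodulin, was high in bone-gene (2375 CPM in control and 2266 in LIP) and fibroblast-gene cells (1891 and 3747 CPM) and low in cartilage-gene cells (162 and 8.96 CPM, the last a single UMI). *Fmod*, which guides collagen cross-linking in tendon and cartilage, ran the other way. It was highest in cartilage-gene cells (1500 CPM in control and 1075 in LIP), followed by bone-gene cells (386 and 491 CPM). In fibroblast-gene cells it was held by 5 UMIs in 5 of 100 control cells (4.59 CPM) and by 138 UMIs in 3 of 26 LIP cells (269 CPM).

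*Omd* was highest in bone-gene cells. Bone-gene cells held 1222 CPM in control, in 17 of 20 cells, and 230 CPM in LIP, in 21 of 31 cells. Cartilage-gene cells came next with 216 and 215 CPM, of which 66.7% and 62.5% of the UMIs were in 1 cell each, and their LIP interval (138 to 320 CPM) overlapped that of the LIP bone-gene cells (199 to 265 CPM). Fibroblast-gene cells held 53.3 and 56.5 CPM. *Omd* had 0 UMIs in the control neutrophils, which allows up to 6.37 CPM, and 2 UMIs in 354 LIP neutrophils, and no other class of either library exceeded 10.2 CPM.

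*Prelp* was highest in control cartilage-gene cells (961 CPM), followed by lymphatic endothelial cells (630 CPM), fibroblast-gene (342 CPM) and bone-gene cells (262 CPM). Control Schwann cells held 264 CPM, but all 46 UMIs were in 1 cell. In LIP the levels were 452 CPM in fibroblast-gene, 439 in cartilage-gene, 411 in lymphatic endothelial and 206 in bone-gene cells, and the intervals of the first 3 overlapped. *Ogn*, a leucine-rich protein known from bone, vessel walls and nerve, stood at 728 CPM in control cartilage-gene, 440 in fibroblast-gene and 77.1 in bone-gene cells. In LIP it was 267 CPM in fibroblast-gene, 161 in cartilage-gene and 102 in bone-gene cells, and the cartilage-gene interval (95.6 to 255 CPM) overlapped both others. *Kera* was nearly absent, with 4 UMIs in kept control cells and 114 in LIP cells.

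**Figure D2:**
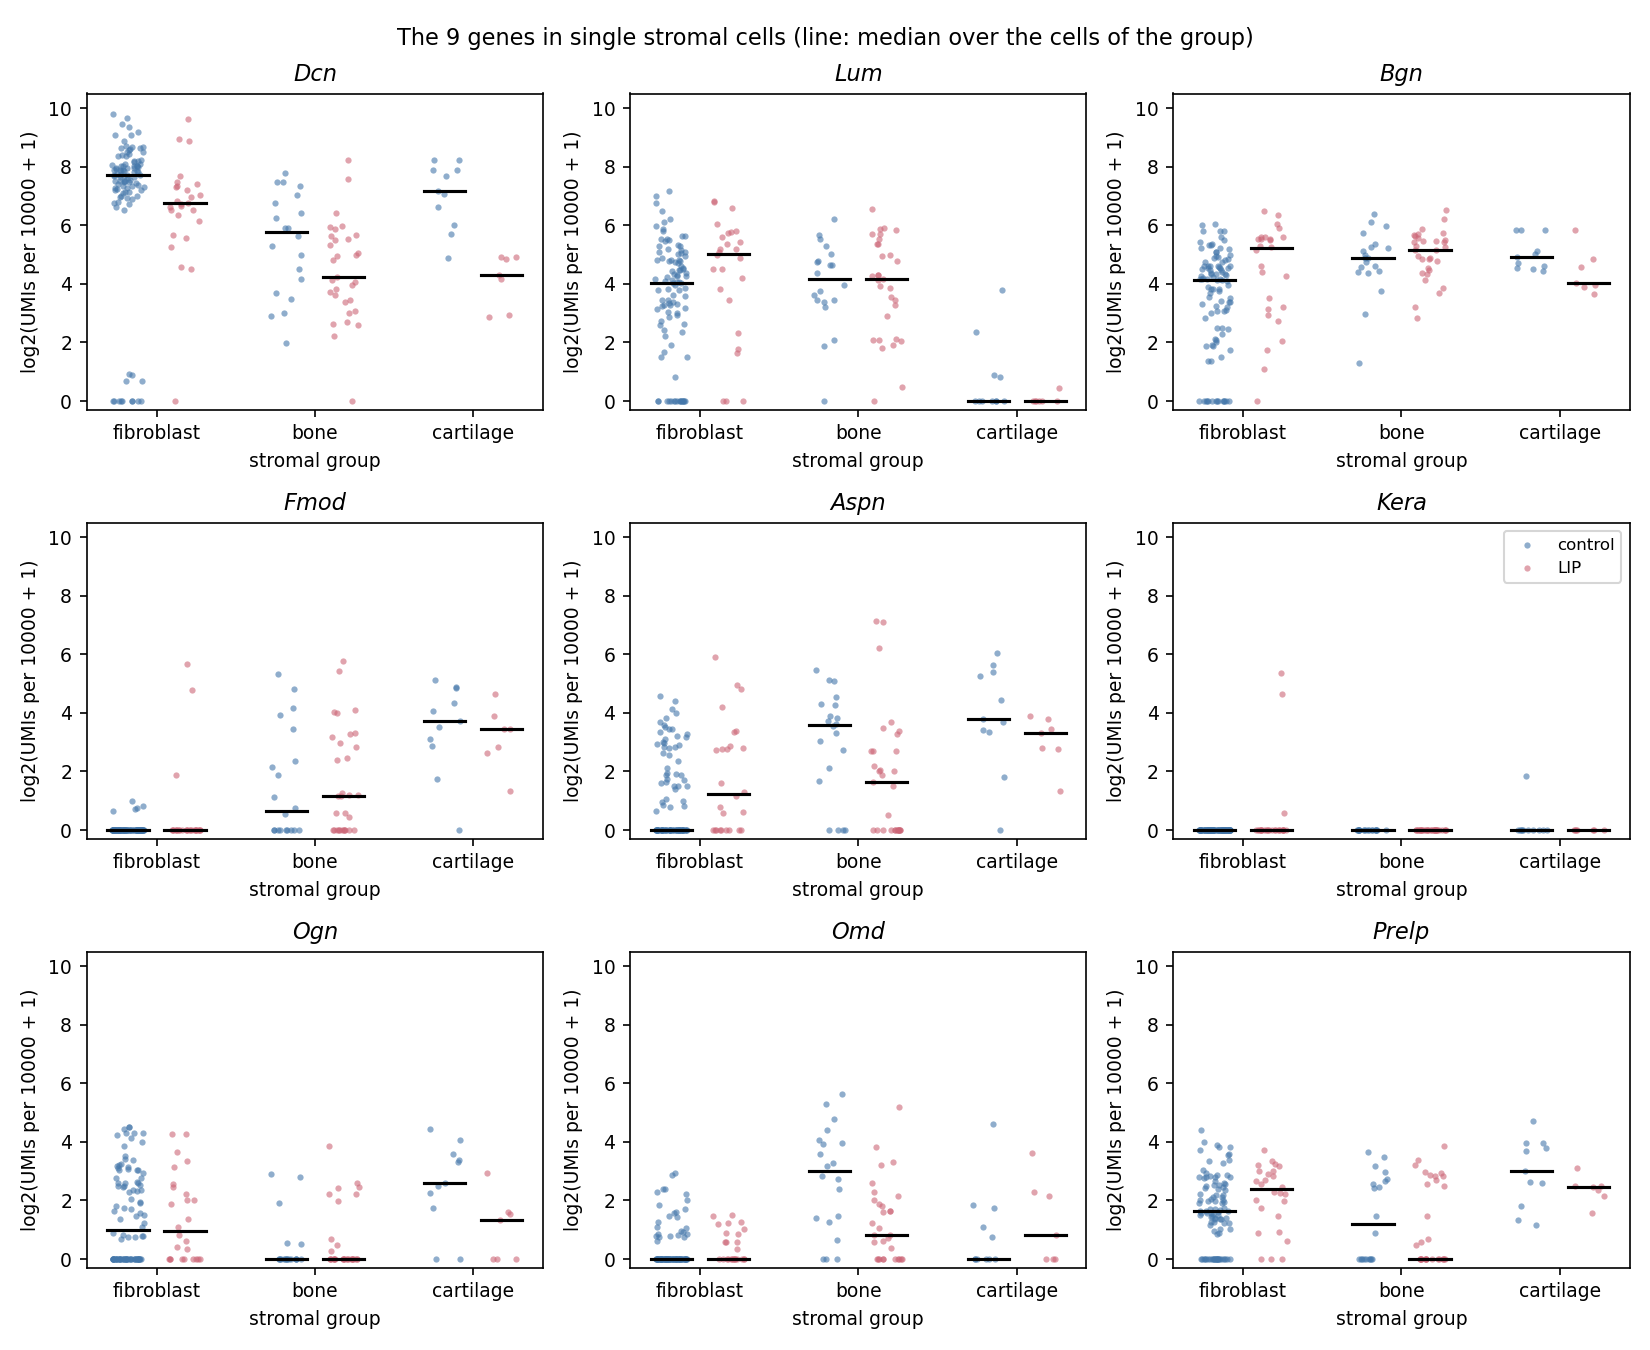
Each point is a stromal cell, plotted as log2(UMIs per 10000 + 1) of the gene in the panel title for fibroblast-gene, bone-gene and cartilage-gene cells of the control and LIP libraries, with a line at the median over cells. *Dcn* is lower in bone-gene than in fibroblast-gene cells of both libraries, *Omd* is found in 17 of 20 control bone-gene cells, and high *Kera* is confined to 2 LIP fibroblast-gene cells.

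Among the members, bone-gene and other stromal cells differed most in *Omd* in the control library. It stood at 1222 CPM (1091 to 1364) in bone-gene cells and 68.3 CPM (54.3 to 84.8) in the other stromal cells, where 31 of 111 cells held it. This was a log2 ratio of 4.16 (3.81 to 4.53), or 17.9-fold. Of the 20 bone-gene cells, 17 were Ibsp/Bglap low, and these held 216 of the 317 *Omd* UMIs, at 1019 CPM (887 to 1164). The 17 low cells held 0 *Bglap* UMIs and 1 *Ibsp* UMI, with *Sp7* in 2 and *Postn* in 15 of them. The control comparison is thus mostly one of low cells with other stromal cells. *Fmod* (386 against 143 CPM, log2 ratio 1.43, 1.06 to 1.79) and *Aspn* (1284 against 487 CPM, 1.40, 1.20 to 1.59) were also more than 2-fold higher in bone-gene cells. *Dcn* (6685 against 20550 CPM, -1.62, -1.69 to -1.55) and *Ogn* (77.1 against 466 CPM, -2.60, -3.32 to -1.96) were more than 2-fold lower. *Bgn* (0.70), *Lum* (0.46) and *Prelp* (-0.61) stayed within 2-fold.

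Of the 8 members with at least 50 UMIs over both groups, 5 were past 2-fold, against 18.3% of 4528 genes, with 3 higher against 5.37% and 2 lower against 12.9%. The median log2 ratio was 0.58 for the 8 and -0.11 for all genes. Without the cells with olfactory neuron or muscle precursor genes the ratio of *Dcn* was -1.79. When a cell was instead placed in the bone group by holding at least 2 bone genes, 29 control cells stood against 102, and *Omd* alone stayed past 2-fold (2.10), while *Dcn* came to -0.28, *Fmod* to 0.07, *Aspn* to 0.53 and *Ogn* to 0.23. With no upper limit on genes and UMIs, *Fmod* came to 0.89 and *Aspn* to 0.86.

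In the LIP library the same 2 genes lay lower in bone-gene cells, *Dcn* (3514 against 11181 CPM, log2 ratio -1.67, -1.73 to -1.61) and *Ogn* (102 against 248 CPM, -1.28, -1.68 to -0.90). *Omd* was higher, at 230 against 84.8 CPM (1.44, 1.0 to 1.91). *Prelp* was lower, at 206 against 449 CPM (-1.13, -1.41 to -0.85). *Kera* had 0 UMIs in 31 bone-gene cells and 114 in the others, so it was at least 52.0-fold lower there against a floor of 3 counts over the group, although 2 cells held nearly all of these UMIs. *Lum* (-0.44), *Bgn* (-0.15), *Fmod* (0.25) and *Aspn* (0.38) were within 2-fold. *Fmod* depended on the grouping, and came to 4.23 with 15 dimensions, 1.57 with no integration, 1.24 without the 2 cells with the most *Kera* UMIs and -1.06 with bone genes judged by cell. *Lum* came to -1.02 with 15 dimensions, and *Aspn* to -0.65 with no upper limit on genes and UMIs.

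In all, 5 of 9 members were past 2-fold in LIP, against 16.8% of 4073 genes, with 1 higher against 5.62% and 4 lower against 11.2%. Among the lower, *Kera* had 0 UMIs in bone-gene cells and reached the minimum of UMIs only through the other stromal cells. Of its 114 UMIs there, 74 and 39 were in single cells. Its call was settled by reaching that minimum and adds no separate evidence to the count. The median was -0.44 for the 9 and -0.11 for all genes. *Omd* was no longer higher under a limit of 5% mitochondrial UMIs (-0.11) or with no upper limit on genes and UMIs (-0.03), and was 0.94 with bone genes judged by cell. *Ogn* came within 2-fold with 15 dimensions (-0.52), no integration (-0.71) and bone genes judged by cell (-0.04). *Prelp* did so by cell (-0.74), with equal weight for each cell (-0.77) and after thinning (-0.23), and *Kera* after thinning (-0.91). *Dcn* stayed past 2-fold in each of its alternatives.

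**Figure D3:**
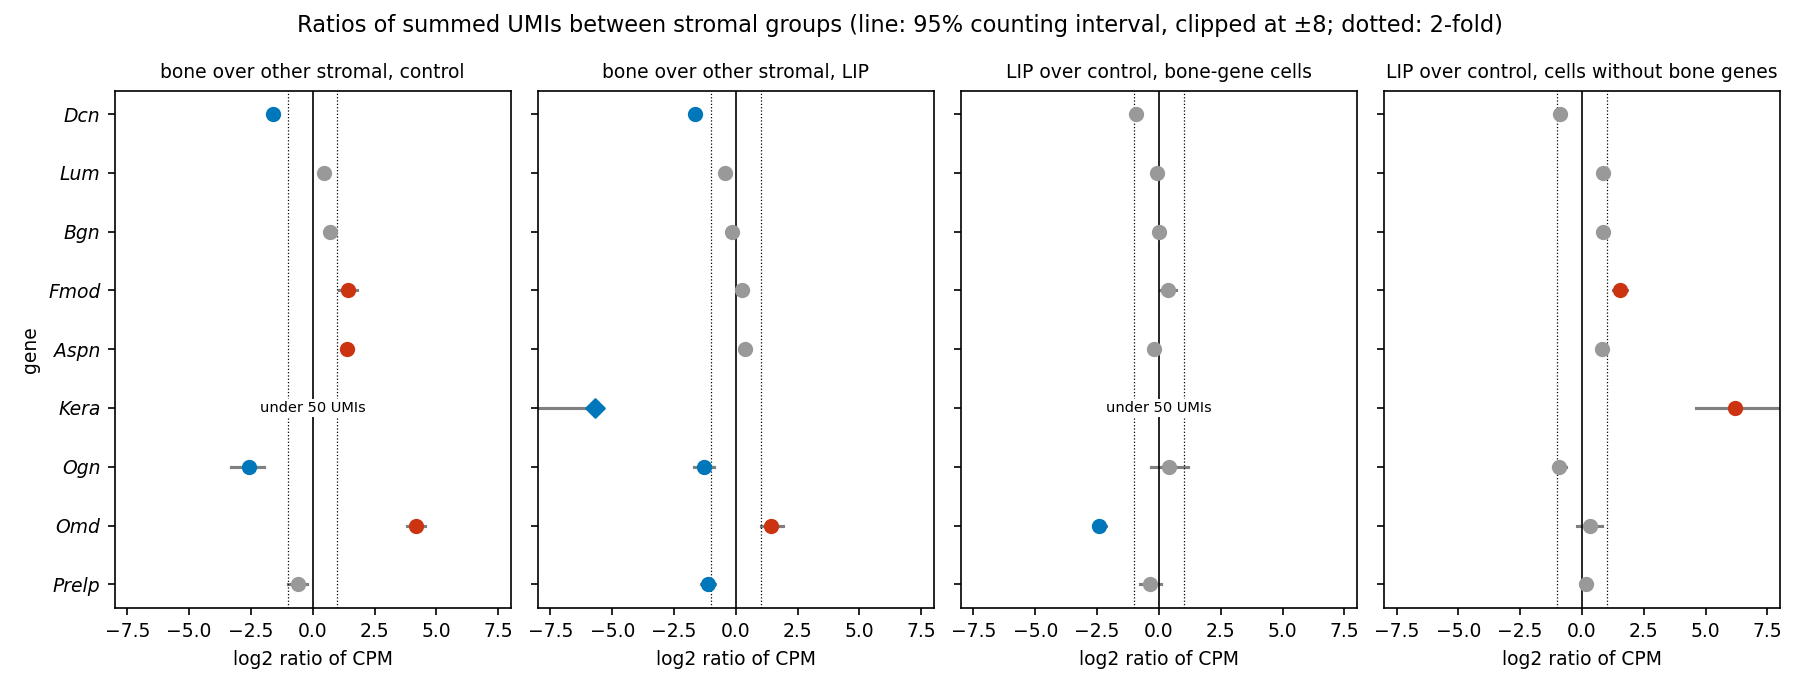
Log2 ratios of CPM with 95% counting intervals for the 9 genes (rows) in 4 comparisons of stromal groups, red where more than 2-fold higher, blue where more than 2-fold lower, and diamonds where a group had 0 UMIs and a floor of 3 counts was used. *Omd* lies at 4.16 for bone-gene over other stromal cells in control and at -2.41 for LIP over control in bone-gene cells.

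Within the LIP bone-gene cells the SLRP genes followed the split by *Ibsp* and *Bglap* UMIs. *Aspn* stood at 2407 CPM (2255 to 2566) in the 16 Ibsp/Bglap low cells, 15 of which held it, and at 36.3 CPM (21.2 to 58.2) in the 15 high cells, 3 of which held it. Of the *Aspn* UMIs of the low cells, 81.1% were in 3 cells, and the median low cell held 5.46 per 10000 UMIs. *Prelp* was in 14 of 16 low cells (452 CPM, 387 to 524) and in 1 of 15 high cells, by 1 UMI. The log2 ratio of high over low was -6.05 (-6.84 to -5.36) for *Aspn* and -7.72 (-13.04 to -5.23) for *Prelp*. *Omd* was lower as well, at 77 CPM in the high and 416 CPM in the low cells (-2.43, -3.0 to -1.90), as were *Fmod* (190 and 855 CPM, -2.17) and *Ogn* (49.2 and 165 CPM, -1.75).

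The more abundant members differed less. *Dcn* was at 2353 CPM in high and 4917 CPM in low cells (-1.06), *Lum* at 1511 and 3179 CPM (-1.07), and *Bgn*, which every cell of both kinds held, at 2603 and 4403 CPM (-0.76). Of 8 members, 7 were past 2-fold, all lower in the high cells, against 25.6% of 2288 genes, of which 17.6% were lower and 8.04% higher. Of the 7, *Prelp* had 1 UMI in the high and 175 in the low cells, and *Aspn* 17 and 932. Both reached the minimum of UMIs only through the low cells. Their calls were settled by reaching that minimum and add no separate evidence to the count. The split itself was set after the data were seen. The median was -1.96 for the 8 and -0.05 for all genes. In the 3 control high cells *Fmod* and *Prelp* had 0 UMIs, which allows up to 63.3 CPM, and *Aspn* was in 1 cell with 22 UMIs. *Omd* was in 2 of the 3 at 2133 CPM, above the 1019 CPM of the 17 control low cells, which is the opposite order to LIP. In these control cells 1 cell held 93.6% of the *Dcn* and 63.4% of the *Omd* UMIs.

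**Figure D4:**
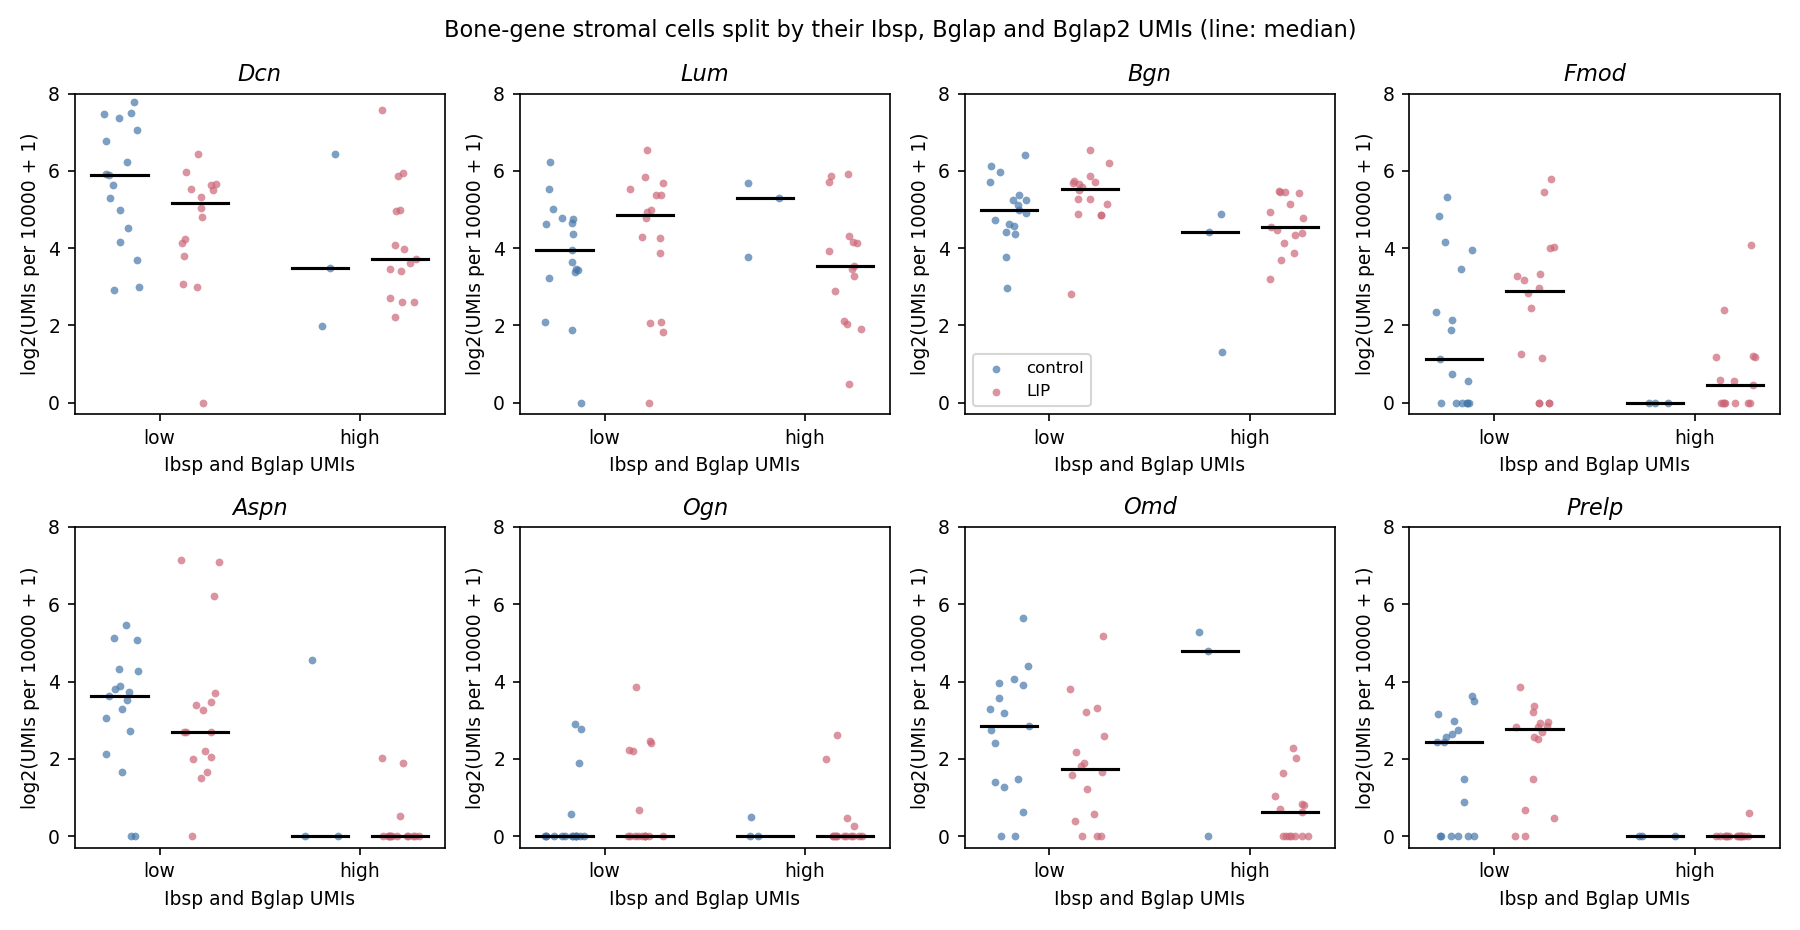
Each point is a bone-gene cell, plotted as log2(UMIs per 10000 + 1), in cells with fewer than 10 (low) or at least 10 (high) *Ibsp*, *Bglap* and *Bglap2* UMIs, with a line at the median. *Aspn* was in 15 of 16 LIP low and 3 of 15 LIP high cells and *Prelp* in 14 of 16 and 1 of 15, while *Bgn* was in all of them.

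Without the Ibsp/Bglap high cells, the LIP comparison of bone-gene with other stromal cells read differently. *Aspn* moved from 0.38 to 1.49 and *Fmod* from 0.25 to 1.05, both then past 2-fold higher as in control (for *Aspn* with 81.1% of the UMIs in 3 cells), and *Omd* moved from 1.44 to 2.29. *Prelp* came to 0.01 in place of -1.13 and *Ogn* to -0.58, while *Dcn* stayed lower at -1.19.

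Between the libraries, *Omd* was the one member past 2-fold in bone-gene cells. It went from 1222 CPM in control to 230 CPM in LIP, a log2 ratio of -2.41 (-2.67 to -2.15), or 5.31-fold lower. The share of Ibsp/Bglap high cells differed between the libraries, 3 of 20 against 15 of 31. Within the low cells alone *Omd* stood at 1019 CPM in 15 of 17 control cells and 416 CPM in 13 of 16 LIP cells (-1.29, -1.60 to -0.99). Of the *Omd* UMIs of these low cells, 3 cells held 62.5% in control and 59.0% in LIP. The part of the cell make-up in the difference was not tested. The other members lay within 2-fold, *Dcn* at -0.93, *Prelp* at -0.35, *Aspn* at -0.21, *Lum* at -0.07, *Bgn* at -0.02, *Fmod* at 0.35 and *Ogn* at 0.40. Thus 1 of 8 members was past 2-fold, against 13.9% of 3087 genes (8.03% lower and 5.90% higher), which puts the count near the background. The median was -0.14 for the 8 and -0.08 for all genes. Within the low cells the signs of 4 members turned, *Aspn* to 0.71, *Lum* to 0.56, *Prelp* to 0.49 and *Bgn* to 0.21, and 1 of 8 members was past 2-fold, against 9.81% of 1795 genes (3.84% lower and 5.96% higher). *Dcn* in all bone-gene cells came to -1.24 without the cell that held the most *Dcn* UMIs, -1.53 with 15 dimensions and -1.82 with bone genes judged by cell. By cell *Ogn* came to -1.46, and with 15 dimensions *Prelp* came to -1.08.

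In the stromal cells without bone genes, *Fmod* and *Kera* were more than 2-fold higher in LIP. *Fmod* went from 143 CPM (15 of 111 cells) to 413 CPM (10 of 33 cells), a log2 ratio of 1.53 (1.24 to 1.81). *Kera* went from 3 UMIs in 1 control cell to 114 UMIs in 3 LIP cells (6.19, 4.61 to 8.49). Both rested on the same 2 LIP fibroblast-gene cells. These held 74 and 39 *Kera* UMIs and 92 and 43 *Fmod* UMIs, together with 43 and 18 UMIs of *Tnmd* and 38 and 10 of *Scx*, genes known from tendon and ligament, and 55 and 285 UMIs of *Chad*, a leucine-rich cartilage protein. Without these cells *Fmod* came to 0.54, as it did with no integration, and the *Kera* count fell below what allows a ratio.

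The abundant members shifted against each other by less than 2-fold. *Lum* (1731 to 3080 CPM), *Bgn* (2132 to 3793 CPM) and *Aspn* (487 to 856 CPM) had log2 ratios of 0.83, 0.83 and 0.81. *Dcn* (20550 to 11181 CPM) and *Ogn* (466 to 248 CPM) had ratios of -0.88 and -0.91. As a share of the 9 genes' UMIs in these cells, *Dcn* made up 79.1% in control and 55.1% in LIP, *Bgn* 8.21% and 18.7%, and *Lum* 6.66% and 15.2%. *Prelp* (0.17) and *Omd* (0.31) had intervals that included 0. *Aspn* was past 2-fold in 5 alternatives, from 1.05 to 1.53.

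In this comparison 2 of 9 members were past 2-fold, against 9.15% of 5300 genes, both higher, against 3.11% higher and 6.04% lower. Of these, *Kera* had 3 UMIs in control and reached the minimum of UMIs only through the 114 in LIP. In single LIP cells it had 74 and 39 of these UMIs. Its call was settled by reaching that minimum and adds no separate evidence to the count. The median was 0.81 for the 9 and -0.06 for all genes. Without the cells with olfactory neuron or muscle precursor genes, *Dcn* came to -1.02 and *Ogn* to -1.06, both just past 2-fold, which made 4 of 9. No share of all genes is given for these cells, so this count cannot be set against a background. In the fibroblast-gene cells taken alone, *Bgn* (1.01) and *Aspn* (1.49) joined *Fmod* and *Kera*, again 4 of 9, against 9.87% of 4872 genes (3.30% higher and 6.57% lower). The same limit applies there to *Kera*, which had 0 UMIs in control and 114 in LIP, and to *Fmod*, with 5 and 138. Of these 138 *Fmod* UMIs, 92 and 43 were in the 2 cells with the most *Kera* UMIs. The calls of *Fmod* and *Kera* thus add no separate evidence to the count. In the cartilage-gene cells, 11 against 7, the members went lower, with *Dcn* from 17452 to 1864 CPM (-3.23), *Ogn* from 728 to 161 CPM (-2.17), *Aspn* from 2228 to 797 CPM (-1.48) and *Prelp* from 961 to 439 CPM (-1.13). These 4 of 6 members stood against 19.3% of 528 genes past 2-fold (9.09% higher and 10.2% lower). *Bgn* (-0.35) and *Fmod* (-0.48) were within 2-fold there.

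Outside the stroma, 5 members reached high levels in 1 or more classes. *Dcn* was found in the epithelium, in 135 of 224 control and 56 of 113 LIP cells. It was highest in the sub-cluster led by *Col17a1* and *Trp63*, genes of basal keratinocytes, at 864 CPM (822 to 908) in control and 1047 CPM (981 to 1118) in LIP. The sub-cluster led by the cell division genes *Cenpf* and *Cdc20* held 818 and 514 CPM, and the one led by *Krt13* and *Krt4*, keratins of upper layers, 134 and 220 CPM. After thinning, *Dcn* was in 38.7% and 55.9% of the *Col17a1* sub-cluster and in 9.01% and 7.41% of the *Krt13* sub-cluster. The epithelial cells held 2991 *Dcn* and 9 *Lum* UMIs in control, against 22727 and 2060 in fibroblast-gene cells, and 128 of the 135 control cells with *Dcn* had no *Lum* UMI. Cartilage-gene cells held 1943 *Dcn* and 18 *Lum* UMIs in control. The source of the epithelial *Dcn* UMIs was not tested. Of 3 members with enough UMIs in the epithelium, 1, *Prelp*, was past 2-fold between the libraries, against 3.82% of 9426 genes (2.41% higher and 1.41% lower). It stood at 9.24 CPM in control, by 57 UMIs in 17 cells, and 4.56 CPM in LIP, by 12 UMIs in 6 cells (log2 ratio -1.02, -2.05 to -0.10).

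*Ogn* marked part of the Schwann cells. In the sub-cluster led by *Ncmap* and *Cldn19*, genes of myelinating Schwann cells, it stood at 1196 CPM (971 to 1458) in control, in 11 of 17 cells, and 2116 CPM (1934 to 2310) in LIP, in 48 of 50 cells. The sub-cluster led by *Scn7a* and *Cdh19* had 0 *Ogn* UMIs in 20 control cells and 40.7 CPM in 28 LIP cells. Over all Schwann cells *Ogn* was higher in LIP, at 563 and 1191 CPM (log2 ratio 1.08), and *Bgn* was lower (184 and 49.9 CPM, -1.88, by 32 and 22 UMIs in 8 cells each). These were 2 of 2 members with enough UMIs, against 7.44% of 2083 genes past 2-fold (3.74% higher and 3.70% lower). The *Ncmap* and *Cldn19* sub-cluster made up a like part of the class in both libraries, 17 of 37 cells in control and 50 of 103 in LIP. The *Scn7a* and *Cdh19* sub-cluster made up 20 of 37 and 28 of 103, and a further sub-cluster held 25 LIP cells and no control cell. The part of this make-up in the differences was not tested.

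*Aspn* was found in 44 of 46 control and 41 of 45 LIP mural cells, and *Bgn* in 41 and 45. Between the libraries *Bgn* was higher in LIP mural cells, at 704 and 1493 CPM (1.08), whereas *Aspn* was within 2-fold (-0.34). *Dcn* was lower (513 and 53.1 CPM, -3.27), but 72.3% of the control UMIs were in 1 cell, and *Ogn* was lower too (188 and 70.3 CPM, -1.42). These were 3 of 5 members, against 7.25% of 3750 genes (3.87% higher and 3.39% lower). *Prelp* was in 19 of 19 control and 4 of 5 LIP lymphatic endothelial cells (630 and 411 CPM) but in 5 of 48 and 7 of 79 vascular endothelial cells (29.0 and 12.7 CPM). Vascular endothelial cells held *Bgn* at 238 and 362 CPM, and 0 of 2 members were past 2-fold there, against 8.43% of 4057 genes (5.32% higher and 3.11% lower).

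**Figure D5:**
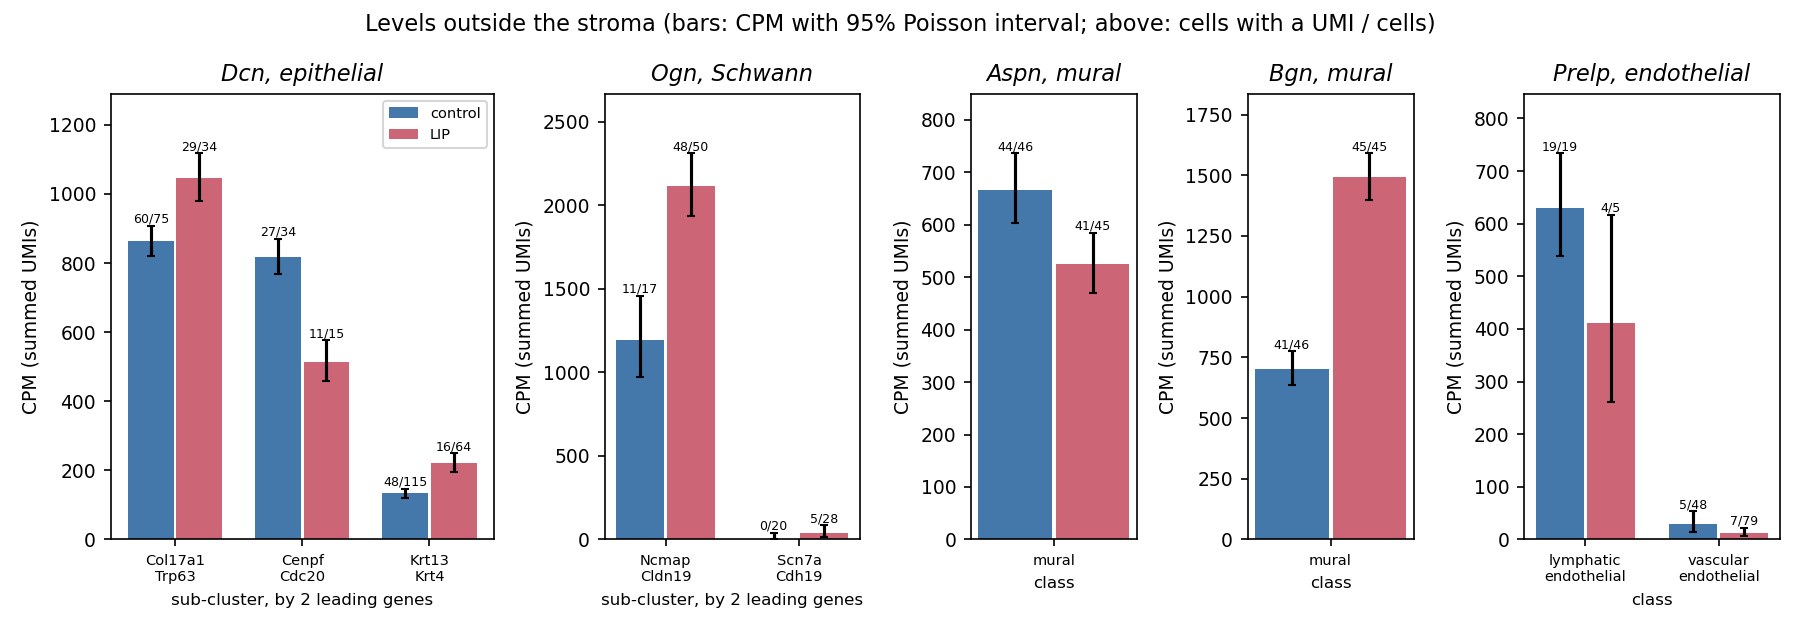
Bars give CPM with 95% Poisson intervals in the control and LIP libraries for *Dcn* in epithelial sub-clusters, *Ogn* in Schwann sub-clusters, *Aspn* and *Bgn* in mural cells and *Prelp* in endothelial classes, with cells holding a UMI over all cells above each bar. *Ogn* reaches 2116 CPM in LIP Schwann cells led by *Ncmap* and *Cldn19*, and *Dcn* reaches 864 and 818 CPM in the control sub-clusters led by *Col17a1* and by *Cenpf*.

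Single stromal cells held a median of 6 of the 9 genes in both libraries, with a range of 0 to 8 in control and 2 to 9 in LIP. The 4 control cells with none were all in the fibroblast-gene group and were among the 8 cells with olfactory neuron genes. Across 25 units, each a cell class in a library with at least 10 cells, the genes most like each member were found by the correlation of log2(CPM + 10) over 13123 genes, given as a description since the units share 2 libraries and differ in depth. *Lum* was most like *Mab21l2* (r = 0.99) and *Pdgfra* (r = 0.98), *Aspn* most like *Prrx1* (r = 0.99) and *Dcn* most like *Fbln1* (r = 0.94). *Bgn* was most like *Mxra8* (r = 0.98), *Omd* most like *Srpx2* (r = 0.97), *Ogn* most like *Rarres2* (r = 0.96), *Fmod* most like *1500015O10Rik* (r = 0.95) and *Prelp* most like *Lrp3* (r = 0.93). Among the members themselves, *Fmod* and *Omd* were most alike over these units (r = 0.89), followed by *Bgn* with *Prelp* and with *Aspn* (both r = 0.88). The units include classes outside the stroma, and over single stromal cells the order differed. There *Dcn* with *Lum* had the highest r, 0.59 in control and 0.52 in LIP. The values were 0.24 and 0.44 for *Fmod* with *Omd*, 0.33 and 0.13 for *Bgn* with *Prelp*, and 0.45 and 0.46 for *Bgn* with *Aspn*.

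Of the other family members, *Chad* (chondroadherin) stood at 2497 CPM in control and 4274 CPM in LIP cartilage-gene cells. *Ecm2*, which lies 11.7 kb before *Aspn*, was highest in cartilage-gene cells too, at 790 and 529 CPM, and reached 229 and 82.9 CPM in vascular endothelial cells. *Podn* (podocan) stood at 207 and 179 CPM in fibroblast-gene cells. *Epyc*, the neighbour of *Kera*, had 75 UMIs in 4 control and 34 in 1 LIP fibroblast-gene cell. In control, 4 of 4 of these genes with enough UMIs were more than 2-fold lower in bone-gene than in other stromal cells, and 3 of 3 in LIP, where 12.9% and 11.2% of all genes were lower. These relatives were not left out of the clustering, and *Chad* was a leading gene of the cartilage-gene cells. The counts therefore describe the groups and are no test of them. *Chad* and *Epyc* had 0 UMIs in control bone-gene cells, against 278 and 75 in the other stromal cells.

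The genes that follow took part in the clustering, so their differences between the stromal groups describe the groups and are no test of them, and *Col12a1*, *Col11a1*, *Col1a1* and *Mmp13* were among the leading genes of the bone-gene cells. The collagens and other fibril partners of the SLRPs were split between the groups. In control, 8 of 22 were more than 2-fold higher in bone-gene cells, namely *Tnc* (log2 ratio 5.54), *Col12a1* (4.73), *Col11a1* (4.54), *Thbs2* (2.34), *Col1a1* (2.02), *Col1a2* (1.52), *Thbs1* (1.5) and *Col6a3* (1.07). The 4 that were lower were *Eln* (-3.16), *Fn1* (-1.28), and *Col14a1* and *Tnxb*, which had 0 UMIs in bone-gene cells and were at least 52.5-fold and 36.6-fold lower. All genes stood at 5.37% higher and 12.9% lower. The list median was 0.80. In LIP 6 of 23 were higher, all among the 8 of control and led by *Col12a1* (4.07), and 9 were lower, namely *Col14a1*, *Tnxb*, *Comp*, *Eln*, *Loxl1*, *Fbn1*, *Fn1*, *Col6a2* and *Col5a3*, with a median of -0.54 and 5.62% higher and 11.2% lower over all genes. All 5 ligament genes with enough UMIs were higher in control bone-gene cells (*Tnmd* at 5.18 and *Postn* at 1.82 besides *Tnc*, *Col12a1* and *Sparc*) and 4 of 6 in LIP. Between the libraries, 8 of 23 fibril partners and 5 of 6 ligament genes were higher in LIP in the stromal cells without bone genes, and none of either list was lower, against 3.11% higher and 6.04% lower over all genes. They were *Tnc* (3.65), *Col11a1* (3.37), *Comp* (3.09), *Eln* (1.86), *Thbs1* (1.77), *Col12a1* (1.18), *Col6a2* (1.13), *Col1a1* (1.08), *Scx* (4.29), *Tnmd* (3.28) and *Postn* (1.44), of which *Scx* and *Tnmd* were held in number by the 2 cells with *Kera*. Within the LIP bone-gene cells, 14 of 20 fibril partners and 4 of 6 ligament genes were lower in the Ibsp/Bglap high cells, among them *Thbs2* (-4.75) and *Tnmd* (-4.64), and none was higher, against 17.6% lower and 8.04% higher over all genes.

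For the lists that follow, 5.37% of all genes were higher and 12.9% lower in control bone-gene cells than in other stromal cells, and 5.62% and 11.2% in LIP. The list of glycosaminoglycan assembly genes also held *Tpst2*, a tyrosine sulfotransferase that builds no glycosaminoglycan chain. In control, *Chpf* (1.16) and *Tpst2* (1.45) were higher and *Ugdh* (-2.13) lower among 12, against 18.3% of all genes past 2-fold either way. In LIP, *Tpst2* (1.39) was higher and *Chst12* (-1.17) and *Dsel* (-1.14) lower among 13, against 16.8%. Among 9 genes of the list for core protein cleavage, 3 were higher and 1 lower in control and 2 higher in LIP. *Mmp13* had 375 UMIs in control bone-gene cells and 0 in the others, and 3112 and 10 in LIP, and *Htra1* (1.37 and 1.16) was higher in both libraries. *Mmp14* (1.44) was higher in control, and *Mmp3* was lower there, with 1 against 619 UMIs (-7.06, -12.37 to -4.58). Of the TGF-β and other signalling partners, 4 of 12 were higher and 2 lower in control, and 2 of 13 higher and 3 lower in LIP. *Tgfb1*, the ligand that decorin and biglycan bind, was higher in both (3.16 and 2.39), with *Bmp2* (2.78), *Tgfbr1* (1.21) and *Igf1r* (1.05) in control and *Wisp1* (2.61) in LIP. *Tgfbr3* (-2.30 and -1.74) and *Egfr* (-1.63 and -1.15) were lower in both, and *Tgfbr2* (-1.82) in LIP.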

How the data were processed

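Single cells of gingiva and alveolar bone surface were profiled in 1 control and 1 LIP library with 10x Genomics 3′ chemistry, and each library pooled 5 mice. The authors made the gene by barcode UMI count matrices with Cell Ranger (3.1.0 per the file headers) on mouse build mm10, and the deposited values are raw counts, not normalized. Barcodes with 200 to 7500 genes, at most 60000 UMIs and at most 10% mitochondrial UMIs were kept. Cells of both libraries were integrated and clustered in Seurat 5.3.0 (R 4.3.3) on 2000 variable features without the 9 genes, with 30 dimensions at a resolution of 0.1, and clusters of at least 40 cells were split again at 0.2. A cluster was named when at least 3 of its markers were detected in at least 25% of its cells and fitted its leading genes. Possible doublets were kept, and Scrublet (scanpy 1.11.5) marked 4 in control and 1 in LIP.

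UMIs were summed per class and library and compared as CPM ratios in Python 3.11.15 (scipy 1.17.1), with exact Poisson intervals for levels, exact Clopper-Pearson intervals for shares and exact conditional intervals for ratios. UMIs count molecules, so these 95% intervals leave out PCR copies but also the spread between animals and between libraries. A gene was called when it was past 2-fold with at least 50 UMIs over both groups, and a group with 0 UMIs was given 3 counts in all as its upper limit. Depth set what could be seen: stromal groups held 111335 to 1200480 UMIs. On simulated Poisson counts over 31053 genes, the comparison of bone-gene with other stromal cells in control recovered 198 of 200 genes changed 4-fold. The simulation had no spread between cells or libraries, and the changed genes were expected above the minimum of UMIs. It checks the calculation and does not show how reliable the calls are in these cells. All 9 members are named with values, other genes came from lists of SLRP relatives, fibril partners, ligament genes, glycosaminoglycan assembly, core protein cleavage and signalling partners and are given by counts, with those past 2-fold named for bone-gene against other stromal cells and examples elsewhere, and the members and lists were chosen with earlier results of these data known. Promoters and coordinates came from RefSeq (GRCm38.p6) and the GRCm38 gene annotation. The alternatives were other limits on cells, clustering settings, thinning, per-cell weights, other folds and leaving out named cells.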

Additional observations from a re-analysis of the deposited data

Results flagged for a closer look

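*Aspn* moved in opposite directions between the libraries in the 2 kinds of stromal cells. The log2 ratio of LIP over control was -0.21 in bone-gene cells and 0.81 in stromal cells without bone genes, and with 1 library per condition the difference between these was not tested. The cells without bone genes were themselves split, with 1.49 in fibroblast-gene and -1.48 in cartilage-gene cells. The ratio in bone-gene cells changed sign in 4 of its 15 alternatives. In the Ibsp/Bglap low bone-gene cells alone the ratio was 0.71, and 1 cell held 35.6% of the *Aspn* UMIs of the LIP bone-gene cells.

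*Dcn* was also present in barcodes that the limits on cells had set aside. Control barcodes with over 10% mitochondrial UMIs (109 barcodes) held 1524 CPM and those over an upper limit on genes or UMIs (16 barcodes) 271 CPM. In LIP the values were 409 CPM (179 barcodes) and 431 CPM (25 barcodes). The barcodes with fewer than 200 genes, 161 in control and 73 in LIP, held 13.4 and 3.42 CPM. Their 972621 and 584160 UMIs fell on few genes per barcode, so these levels are a weak background for *Dcn*.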

How the results depend on the processing

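No paired analysis was possible because each condition had 1 library and no result came from a test. Of the 13 log2 ratios past 2-fold in the 4 main comparisons of stromal groups, 9 kept their sign and 4 stayed past 2-fold under every alternative that left a ratio. Those 4 were *Omd* for bone-gene over other stromal cells in control (2.10 to 4.52), *Omd* for LIP over control in bone-gene cells (-3.09 to -1.29), *Dcn* for bone-gene over other stromal cells in LIP (-1.91 to -1.19) and *Kera* for LIP over control in stromal cells without bone genes (2.72 to 6.38). For LIP over control, *Kera* had no ratio without the 2 cells with most of its UMIs, with 15 dimensions or with no integration. After thinning, *Kera* (2.72) and *Omd* in bone-gene cells (-2.58) kept their ratios but fell under 50 UMIs and were not called. The other settings that changed a sign among the 13 were these. *Ogn* for bone-gene over other stromal cells in control came to 0.23 with bone genes judged by cell. In LIP, *Kera* came to 5.93 with 15 dimensions and 6.09 with no integration, *Omd* to -0.11 with a limit of 5% mitochondrial UMIs and -0.032 with no upper limits, and *Prelp* to 0.0081 without the Ibsp/Bglap high cells. With 15 dimensions no cartilage-gene cluster formed and 31 control and 38 LIP cells were bone-gene cells. The cause of the other changes was not tested.

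The stromal share of the 9 genes' UMIs was 87.9%, 86.3%, 86.3% and 92.6% in control, against 85.6%, with a limit of 5% mitochondrial UMIs, a limit of 20%, no integration and thinning to 1000 UMIs. In LIP, against 82.2%, it was 88.4%, 81.5%, 83.0% and 75.3% under the same 4 settings, 81.0% with no upper limits and 81.4% with 15 dimensions. The count of members past the fold for bone-gene over other stromal cells, 5 in each library, was 1 in control and 3 in LIP with bone genes judged by cell, 3 and 2 at a fold of 3, and 1 in LIP after thinning. For LIP over control in bone-gene cells the count of 1 became 4 with 15 dimensions, 2 with no integration, 3 with bone genes judged by cell, 0 after thinning, 2 without the top cell of each member and 2 at a fold of 1.5. For LIP over control in stromal cells without bone genes the count of 2 became 4 with a limit of 5% mitochondrial UMIs, no upper limits, Scrublet doublets removed or bone genes judged by cell, 1 with no integration, thinning, the top cell of each member left out or a fold of 3, and 7 at a fold of 1.5. Among alternatives chosen after seeing the data, it became 4 without the cartilage-gene cells or without the cells with olfactory neuron or muscle precursor genes, and 1 without the 2 cells with the most *Kera* UMIs. Apart from the fibroblast-gene cells taken alone, no share of all genes past the fold is given under these other settings and folds. The counts therefore show only how the calls moved and cannot be set against a background. The 11 control and 7 LIP cartilage-gene cells together held too few *Lum*, *Kera* and *Omd* UMIs for a call.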
